A study of Mus musculus with 10 samples.

Results

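Transport between the endoplasmic reticulum (ER) and the Golgi was followed through 42 genes for coat subunits, cargo receptors, membrane fusion proteins and tethers. They were taken from a list of gene symbols and matched to the Ensembl gene identifiers of the deposited count tables through GENCODE M21. Every listed symbol had 1 row, so the genes make up 42 of the 48709 rows. All 42 passed the filter on low counts, and none had to be left out. The genes were sorted by role into 12 of the COPII coat, 9 of the COPI coat, 7 of the p24 family, 7 KDEL and cargo receptors, 4 SNAREs and 3 tethers.

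The cells were neurons of the mouse hippocampus in primary culture at DIV 10 (10 days in vitro). One group of 4 libraries had received the solvent DMSO, and the other group of 6 libraries tunicamycin at 2 ug/mL, both for 6 h. Tunicamycin inhibits N-glycosylation of proteins in the ER, which leads to ER stress. The labels give no strain, sex, age of the donor animals or pooling, and they leave unsaid whether each library is a culture of its own. The p-values below therefore rest on the variation among these 10 libraries, and that variation may be only technical.

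COPII vesicles carry newly made proteins out of the ER. The small GTPase Sar1 starts the coat, Sec23 and Sec24 form its inner layer, with Sec24 binding the cargo, and Sec13 and Sec31 form the outer cage. COPI vesicles run the other way, from the Golgi back to the ER, and return escaped ER residents and empty receptors. SNARE proteins and long tethers then dock and fuse the vesicles. Neurons use the same route for membrane proteins and secreted cargo of dendrites and axons. Induction of ER-Golgi transport genes during ER stress is a known branch of the unfolded protein response.

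Libraries held 2.11e+07 to 2.92e+07 deposited counts each. Levels are given as CPM, counts per 1e6 of a library's total after TMM scaling (a correction for differences in composition). As a check of the treatment, Hspa5, the ER chaperone BiP, was at 615 ± 40.2 CPM (SD, n = 4) with DMSO and 3203 ± 140 CPM (n = 6) with tunicamycin. Dpagt1, the enzyme that tunicamycin inhibits, went from 23.3 to 41.4 CPM. Markers of cell types were called by the edgeR test given below, by which 32.5% of all genes tested were lower and 31.8% higher. Among the neuron markers, 9 of 10 were lower with tunicamycin, and their summed level was 7656 to 8275 CPM with DMSO and 6441 to 6868 CPM with tunicamycin. All 8 astrocyte markers were lower too, at 3033 to 3469 CPM against 2115 to 2361 CPM in sum. All 6 proliferation markers were lower (92.9 to 115 CPM in sum with DMSO, 57.7 to 68.7 CPM with tunicamycin), as were 4 of the 6 microglial markers tested (14.5 to 18.1 CPM against 11.2 to 13.4 CPM). Of the oligodendrocyte and precursor markers 4 of 8 were lower and 1 higher (191 to 243 CPM against 121 to 147 CPM). Of the fibroblast and mural markers 2 of 6 were lower (33.3%), and of the endothelial markers 1 of 4 was higher (25%), with Cldn5 near 0. Both shares were near those over all genes tested. Of the excitatory neuron markers 3 of 6 were lower and 1 higher, and of the interneuron markers 4 of 6 were lower. The part of these cell type markers in the results below was not tested. RNA came from whole cultures, in which fewer cells of a type and less RNA per cell cannot be told apart.

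Most of the transport genes were higher after tunicamycin. By edgeR's quasi-likelihood test, at an adjusted p under 0.05 over all 15660 genes tested, 32 of 42 rose (76.2%) and 4 fell (9.52%). The response was wide across the genome, with 31.8% of all genes tested called higher and 32.5% called lower. The median log2 fold change was 0.42 over the 42 genes and -0.02 over all genes tested. The 4 that fell were Sar1b, Copg2, Copz2 and Kdelr1, and the 6 not called were Sec23a, Sec13, Copg1, Copz1, Cope and Tmed4. With upper-quartile scaling, which shifts the median of all genes by -0.115 on the log2 scale, 23.2% of all genes were called higher and 44.3% lower, while 32 of the 42 were higher and 8 lower.

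The rise was broad and mostly modest. In 32 of the 42 genes every tunicamycin library lay above every DMSO library, against 26.6% of all genes tested, and in 3 every tunicamycin library lay below, against 24.5%. A call with a rise of at least 1.5-fold was made for 12 of 42 (28.6%, against 8.97% of all genes), and of at least 2-fold for 2 of 42 (4.76%, against 2.78%). Those 2 were Sec23b and Sec24d. The coefficient of variation between libraries of a group had a median of 3.92% with DMSO and 3.74% with tunicamycin, and the highest was 20.8%, for Kdelr3 with DMSO. All 36 called genes had the same sign in each of the 3 sequencing lanes that the deposited file names give. Groups that do not overlap fix that sign in advance, so of the 36 only Copz2, whose groups overlapped, could have differed. Lanes 2 and 3 hold 1 DMSO library each, and the share over all genes was not computed. The 42 genes summed to 4456 to 4618 CPM with DMSO and 5697 to 5954 CPM with tunicamycin.

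**Figure D1:**
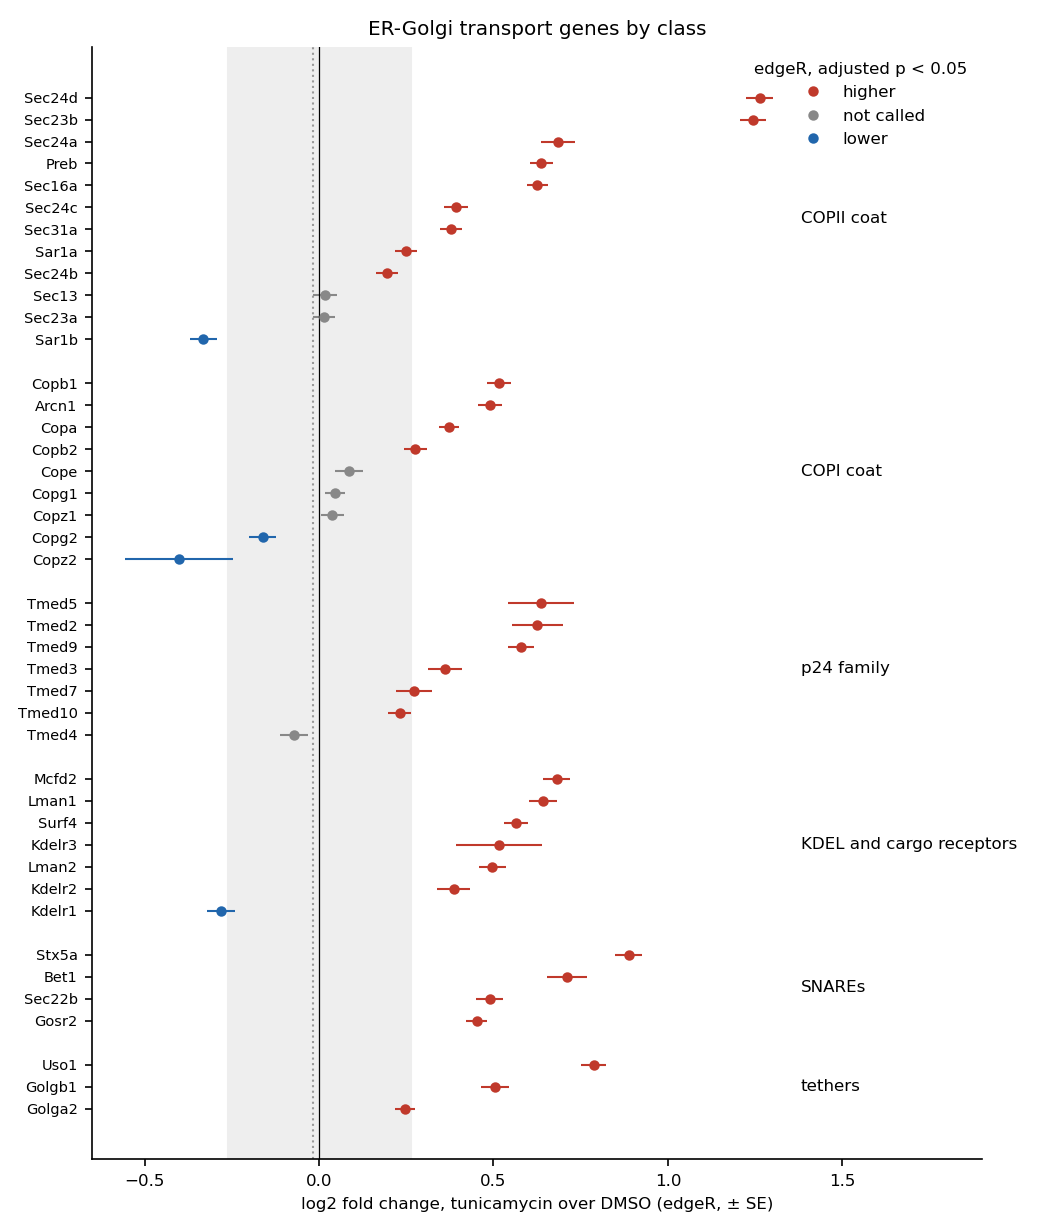
Log2 fold change (tunicamycin over DMSO) of each of the 42 genes, ordered within its class, as points with bars of ± 1 standard error, red for genes called higher by edgeR, blue for lower and grey for not called, over a grey band for the middle 50% of all genes tested and a dotted line at their median. Sec24d and Sec23b stand furthest to the right, at 1.26 and 1.24, and Sar1b, Copg2, Copz2 and Kdelr1 are the called genes left of 0.

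The stretches below are shown because they carry, close to the transcription start, the letters TGACGTGG, a core of the unfolded protein response element bound by XBP1 and ATF6, or its shorter part TGACGT, found in cAMP response elements. Each is 30 bases of the coding strand, read 5′ to 3′ from the RefSeq promoter table (GRCm38.p6), with the matching letters in capitals. CCACGTCA is TGACGTGG on the opposite strand. For Sec24d (COPII, rose), Kdelr3 (KDEL receptor, rose), Copb1 and Copb2 (COPI, rose), Stx5a (SNARE, rose; matches on both strands) and Sec23a (COPII, not called) the 8 letters are marked, and the 6 letters for the other genes with a match that begins within 50 bases of the start, which are Sec23b, Sec16a, Sar1a and Sec24c (COPII, rose) and Copz1 (COPI, not called).
Sec24d, chr3:123267459-123267488, plus strand: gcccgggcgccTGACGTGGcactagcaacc
Kdelr3, chr15:79516367-79516396, plus strand: tggccgccccgCCACGTCAccgcgcggcca
Copb1, chr7:114254690-114254719, minus strand: cccgcccccttCCACGTCAgccaaggactt
Copb2, chr9:98563713-98563742, plus strand: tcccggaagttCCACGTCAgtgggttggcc
Stx5a, chr19:8741422-8741451, plus strand: tggcgcagcagCCACGTCAccgagttagga
Stx5a, chr19:8741444-8741473, plus strand: agttaggagtacgtctaggTGACGTGGcgg
Sec23a, chr12:59011993-59012022, minus strand: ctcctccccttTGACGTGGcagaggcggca
Sec23b, chr2:144556208-144556237, plus strand: ggcgccgcgaaaTGACGTttcggagcggtg
Sec16a, chr2:26445216-26445245, minus strand: ggcggggcgcgcTGACGTctccttcggaca
Copz1, chr15:103272867-103272896, plus strand: gccaatcagcggTGACGTcgcttgtgcgac
Sar1a, chr10:61680299-61680328, plus strand: cagggaggggcgTGACGTacatccggcgcg
Sec24c, chr14:20674338-20674367, plus strand: gcctgggagcctTGACGTtaggaacgaagt

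Promoters of 250 bases before to 50 after the RefSeq start were found for 36 of the 42 genes, all but Arcn1, Golgb1, Kdelr2, Lman1, Tmed2 and Tmed7. Both strands were searched. TGACGTGG was in the promoters of 6 of the 36 (16.7%), against 1.03% of the 11503 tested genes with a promoter and 0.676% of all 32851 promoters. Of these 6, 5 rose and 1, Sec23a, was not called. Among the 36 with a promoter, 26 rose, 4 fell and 6 were not called. The match began before the RefSeq start by 26 bases in Sec24d, 30 in Kdelr3, 28 in Copb1 and 7 in Copb2. It began after that start in Sec23a (base 7) and Stx5a (bases 10 and 40). Starts in GENCODE M21 differ for some genes, and Sec24d begins there at base 123267455, ahead of the stretch printed above.

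The shorter TGACGT, which every TGACGTGG contains, was in 14 of 36 (38.9%, against 12.8% of tested genes with a promoter and 7.51% of all promoters). Of those 14, 11 rose and 3 were not called (Sec23a, Cope and Copz1). Sec24a is among the 14 by its RefSeq promoter, which lies inside the gene as GENCODE M21 places it. The full ER stress response element, CCAAT and CCACG with 9 bases of any kind between them, matched none of the 36 and 0.119% of all promoters. ERSE-II, ATTGG and CCACG with 1 base between them, also matched none, against 0.0365% of all promoters. The C/EBP-ATF response element TGATGNAA matched only Kdelr1 (2.78%, against 2.75% of tested genes). The single parts gave 41.7% against 42.5% of tested genes for CCAAT, and 77.8% against 51.4% for CCACG, which overlaps TGACGTGG read on the other strand. A match is a run of letters and not a shown binding site.

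Within the COPII coat, 9 of 12 genes rose (75%, against 31.8% of all genes tested) and 1 fell (8.33%, against 32.5%). The other 2 were not called, and the class had a median log2 fold change of 0.39. The summed level of the 12 genes went from between 1234 and 1262 CPM to between 1605 and 1680 CPM. The exchange factor of Sar1, the exit site scaffold and all 4 cargo-binding Sec24 genes rose. Sec23 and the outer cage each held a gene that rose and a gene that was not called, and the Sar1 pair a gene that rose and a gene that fell.

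Sec24d (ENSMUSG00000039234, GRCm38 chr3:123267455-123365641) binds cargo in the inner coat. It was at 56.2, 57.1, 56.3 and 54.8 CPM in the DMSO libraries and at 124 to 140 CPM in the tunicamycin libraries, with a median of 136. No DMSO library came near the lowest tunicamycin library. Its fold change was 2.40 (log2 1.26 ± 0.04, SE, edgeR adjusted p = 3.27e-17).

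Sec24a, a close relative, was at 29.6, 31.0, 30.1 and 28.8 CPM with DMSO and 44.4 to 53.1 CPM with tunicamycin (median 48.5), a 1.61-fold rise (edgeR adjusted p = 4.71e-11). Sec24c rose less, from 130, 123, 125 and 118 CPM to between 157 and 172 CPM (median 162), or 1.31-fold (edgeR adjusted p = 1.45e-09). Sec24b rose least of the 4, from 75.9, 75.2, 74.1 and 78.4 CPM to between 85.2 and 88.3 CPM (median 86.8), or 1.14-fold (edgeR adjusted p = 1.13e-05). In each of these 3 genes the groups were apart, even where the step was small.

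All 6 ratios among the Sec24 genes changed. A ratio of 2 counts inside a library does not depend on scaling between libraries, and each was tested by an exact two-sided permutation test over the 210 ways to split 10 libraries into 4 and 6. P-values were adjusted over the 18 paralog pairs compared. The smallest p this design can give is 0.00476, and all 6 Sec24 pairs reached it (0.00612 after adjustment). The log2 ratio of Sec24c to Sec24d was 1.11 to 1.21 with DMSO and 0.20 to 0.36 with tunicamycin, a difference of -0.87 ± 0.03 (SE). For Sec24b to Sec24d the difference was -1.07 ± 0.04, and for Sec24a to Sec24d -0.58 ± 0.03. Sec24a gained on Sec24b by 0.49 ± 0.05 and on Sec24c by 0.29 ± 0.05, and Sec24b lost to Sec24c by -0.20 ± 0.04. The order of gain was thus Sec24d, Sec24a, Sec24c and Sec24b, with each neighbour in it apart.

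Sec23 is the inner coat partner of Sec24 and the GTPase activator of Sar1. Sec23b (ENSMUSG00000027429, chr2:144556229-144590749) was at 68.2, 64.8, 66.9 and 63.2 CPM with DMSO and 148 to 162 CPM with tunicamycin (median 157). It rose 2.37-fold (log2 1.24 ± 0.04, edgeR adjusted p = 2.30e-17). Its paralog Sec23a (chr12:58958383-59012017) was at 240, 247, 243 and 258 CPM with DMSO and 242 to 259 CPM with tunicamycin (median 247). The Sec23a groups overlapped and the gene was not called (log2 0.02 ± 0.03, edgeR adjusted p = 0.694). Under upper-quartile scaling it passed as lower (log2 -0.10, edgeR adjusted p = 0.00613). Its promoter holds the 8-letter match shown above, and that of Sec23b only the 6-letter one. The log2 ratio of Sec23a to Sec23b moved from 1.82 to 2.03 with DMSO to between 0.58 and 0.74 with tunicamycin, a difference of -1.23 ± 0.05 (exact permutation p = 0.00476, adjusted 0.00612).

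The small GTPase Sar1 has a pair of genes, and they went in opposite directions. Sar1a was at 197, 180, 183 and 181 CPM with DMSO and 213 to 225 CPM with tunicamycin (median 222), a 1.19-fold rise (edgeR adjusted p = 6.96e-07). Sar1b (ENSMUSG00000020386, chr11:51763687-51791925) was at 63.5, 59.5, 59.4 and 62.1 CPM with DMSO and 45.6 to 51.0 CPM with tunicamycin (median 48.6). Every tunicamycin library was under the lowest DMSO library, and the gene fell to 0.795-fold (log2 -0.33 ± 0.04, edgeR adjusted p = 1.06e-07). The log2 ratio of Sar1a to Sar1b gained 0.58 ± 0.04 (exact permutation p = 0.00476, adjusted 0.00612), a 1.5-fold shift. Sar1b lies head to head with Sec24a in GENCODE M21, Sec24a on the minus strand ending at base 51763634 and Sar1b on the plus strand starting at 51763687, with 52 bases between them. The RefSeq promoter table places the start of Sec24a elsewhere, in a window at chr11:51756785-51757084, so the distance between the starts depends on the annotation. Of these neighbours Sec24a rose 1.61-fold while Sar1b fell.

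**Figure D2:**
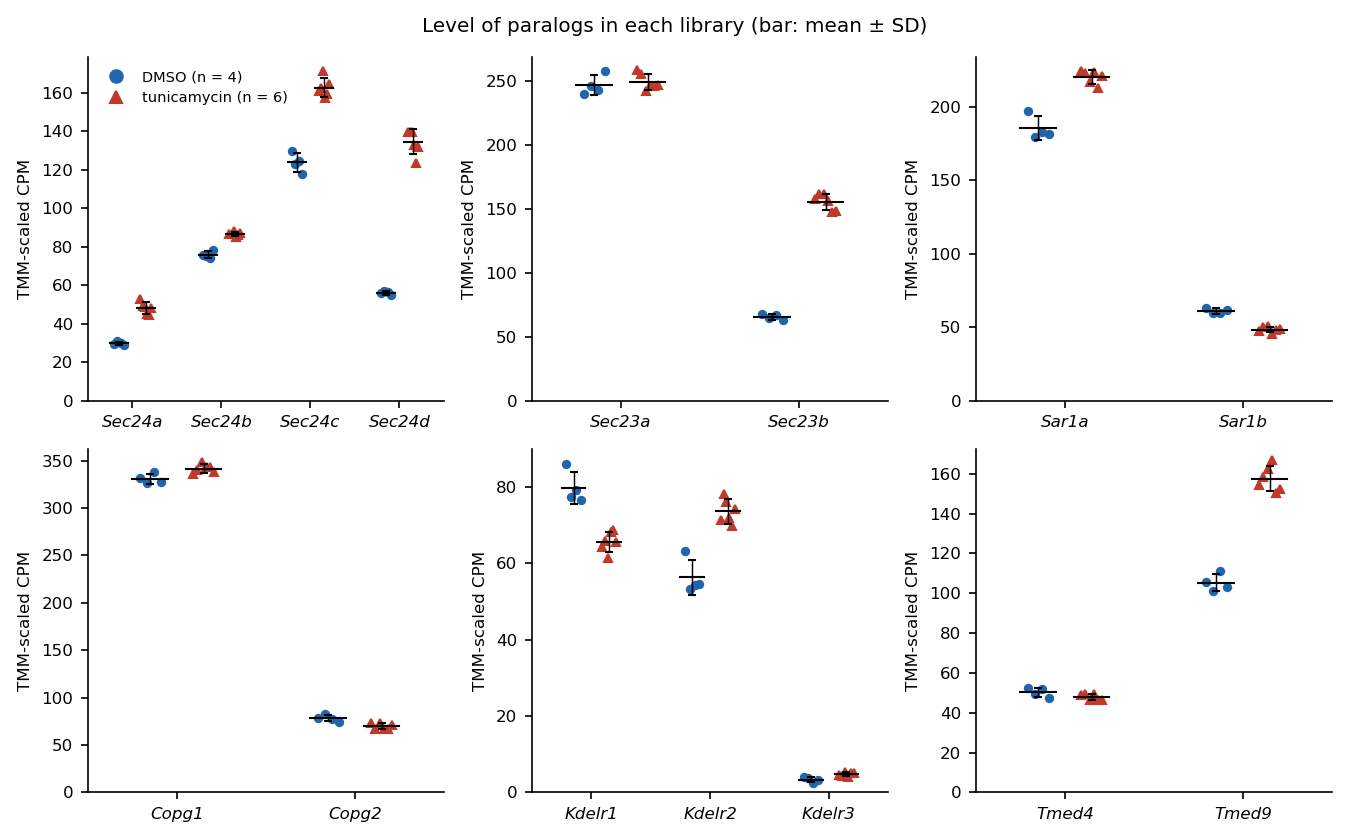
TMM-scaled CPM of paralogous genes in each library, DMSO and tunicamycin side by side, as blue circles and red triangles, with bars for each group's mean ± SD. Sec24d and Sec23b more than doubled in level while Sec23a stayed between 240 and 259 CPM in all 10 libraries, and Sar1b and Kdelr1 are lower in every tunicamycin library.

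Preb, the Sec12 protein that loads Sar1 with GTP, was at 63.4, 62.6, 64.3 and 63.8 CPM with DMSO and 95.3 to 102 CPM with tunicamycin (median 99.4). The groups were far apart, and Preb rose 1.56-fold (edgeR adjusted p = 1.53e-13). Some 21.9% of its exonic bases overlap Abhd1, which was itself at 0.629 CPM with DMSO and 0.599 CPM with tunicamycin and was not called. Sec16a, the scaffold of ER exit sites, was at 124, 128, 123 and 128 CPM with DMSO and 188 to 199 CPM with tunicamycin (median 194), a 1.54-fold rise (edgeR adjusted p = 9.53e-14). In the outer cage, Sec31a was at 138 ± 5.32 CPM with DMSO and 179 ± 2.77 CPM with tunicamycin, a 1.30-fold rise (edgeR adjusted p = 7.20e-10). Its cage partner Sec13, which also sits in the nuclear pore, was at 74.3 ± 2.21 CPM with DMSO and 75.3 ± 2.46 CPM with tunicamycin, with overlapping groups, and was not called (edgeR adjusted p = 0.673), while upper-quartile scaling called it lower (log2 -0.10, edgeR adjusted p = 0.0192).

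Of the 9 genes of the COPI coat, 4 rose (44.4%, against 31.8% of all genes tested), 2 fell (22.2%, against 32.5%) and 3 were not called (median log2 fold change 0.09). The 3 not called, Copg1, Copz1 and Cope, turned negative under upper-quartile scaling, and Copg1 was then called lower (log2 -0.07, edgeR adjusted p = 0.0375). The summed level went from between 1519 and 1584 CPM to between 1801 and 1865 CPM. Most of that sum is Copa, the alpha subunit, together with Copg1 and Copb2.

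Copb1 (beta subunit, ENSMUSG00000030754, chr7:114215559-114254711) had the smallest p of the class. It was at 137, 130, 131 and 134 CPM with DMSO and 181 to 202 CPM with tunicamycin (median 190), a 1.43-fold rise (log2 0.52 ± 0.03, edgeR adjusted p = 1.14e-11). Its groups were far apart. Arcn1, the delta subunit, went from 154 ± 5.67 to 217 ± 8.13 CPM (1.40-fold, edgeR adjusted p = 5.17e-11). Copa went from 413 ± 8.01 to 535 ± 10.8 CPM (1.30-fold, edgeR adjusted p = 1.76e-10). Copb2, the beta-prime subunit, went from 202 ± 9.14 to 245 ± 4.05 CPM (1.21-fold, edgeR adjusted p = 1.33e-07). These 4 subunits span the outer cage (alpha, beta-prime) and the inner, adaptor-like part (beta, delta).

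The gamma and zeta subunits each exist as a pair of paralogs, and none of these 4 genes rose. Copg1 was at 331, 327, 338 and 327 CPM with DMSO and 336 to 349 CPM with tunicamycin (median 341) and was not called (edgeR adjusted p = 0.152). Copg2 was at 78.0, 82.6, 77.1 and 74.8 CPM with DMSO and 66.6 to 73.8 CPM with tunicamycin (median 69.4), below every DMSO library. It fell to 0.894-fold (log2 -0.16 ± 0.04, edgeR adjusted p = 0.00103). Copg2 overlaps Mest in 17.8% of its exonic bases, the kit does not mark strand, and Mest itself fell from 76.0 ± 8.13 to 57.3 ± 2.98 CPM (log2 -0.41, edgeR adjusted p = 1.03e-05), so the value of Copg2 is uncertain. The log2 ratio of Copg1 to Copg2 gained 0.21 ± 0.05 (exact permutation p = 0.00476, adjusted 0.00612).

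Copz1 was at 180, 169, 176 and 164 CPM with DMSO and 172 to 182 CPM with tunicamycin and was not called (edgeR adjusted p = 0.323). Copz2, the rare zeta paralog, had the lowest level of all 42 genes, at 3.23, 2.14, 2.51 and 2.62 CPM with DMSO and 1.52 to 2.46 CPM with tunicamycin (median 1.96). Its groups overlapped. It passed as lower (0.757-fold, log2 -0.40 ± 0.16, edgeR adjusted p = 0.0278), but the call was lost without DMSO 1 (log2 -0.28, adjusted p = 0.136), without tunicamycin 1 (-0.35, 0.0566) and without tunicamycin 5 (-0.33, 0.0712). The ratio of Copz1 to Copz2 gained 0.45 ± 0.16 (exact permutation p = 0.0333, adjusted 0.04) and did not pass when any of 7 libraries was left out (DMSO 1, 3 and 4, tunicamycin 1, 2, 5 and 6). Cope, the epsilon subunit, was at 62.3 ± 3.62 CPM with DMSO and 66.1 ± 2.5 CPM with tunicamycin. It was not called (log2 0.09, edgeR adjusted p = 0.066). It passed as higher without DMSO 3 (log2 0.13, edgeR adjusted p = 0.013), without tunicamycin 1 (0.10, 0.029) and with no filter on low counts (0.11, 0.023). It was at 0.05 without DMSO 2 and at -0.03 under upper-quartile scaling, not called in either.

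The p24 proteins cycle between ER and Golgi in mixed complexes of alpha, beta, gamma and delta members, and take GPI-anchored proteins into COPII vesicles. Of the 7 genes in this class 6 rose (85.7%, against 31.8% of all genes tested) and 1 was not called (median log2 fold change 0.36). The class summed to between 481 and 502 CPM with DMSO and between 594 and 634 CPM with tunicamycin. It does not hold every Tmed gene. Tmed1 and Tmed8, counted below among the cargo helpers, were both called lower, with groups apart. Their log2 fold changes were -0.32 (edgeR adjusted p = 0.000834) and -0.21 (edgeR adjusted p = 1.35e-05). Tmed6 and Tmed11, listed with them, were not tested.

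Tmed9, an alpha member (ENSMUSG00000058569, chr13:55573732-55597697), was at 106, 101, 111 and 103 CPM with DMSO and 150 to 167 CPM with tunicamycin (median 156). It rose 1.49-fold (log2 0.58 ± 0.04, edgeR adjusted p = 7.92e-12) with no overlap. The other alpha member, Tmed4, was at 52.4, 49.3, 51.9 and 47.4 CPM with DMSO and 46.2 to 49.6 CPM with tunicamycin (median 47.6), with overlapping groups, and was not called (log2 -0.07 ± 0.04, edgeR adjusted p = 0.116). Under upper-quartile scaling Tmed4 passed as lower (log2 -0.19, adjusted p = 0.000288). The ratio of Tmed4 to Tmed9, free of that scaling, changed by -0.65 ± 0.03 on the log2 scale (exact permutation p = 0.00476, adjusted 0.00612).

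Among the gamma members, Tmed5 was at 20, 23.9, 21.8 and 28.1 CPM with DMSO and 33.3 to 42.3 CPM with tunicamycin (median 35.3), a 1.55-fold rise (edgeR adjusted p = 6.52e-05). Its groups were apart, but the size varied between lanes, with log2 fold changes of 0.89, 0.65 and 0.29. Tmed7 was at 120, 119, 113 and 123 CPM with DMSO and 129 to 163 CPM with tunicamycin (median 140), a 1.21-fold rise (edgeR adjusted p = 0.000186). Tmed3 went from 27.1 ± 1.64 to 34.8 ± 1.64 CPM, a 1.28-fold rise (edgeR adjusted p = 1.24e-06). The ratio of Tmed5 to Tmed7 gained 0.37 ± 0.10 (exact permutation p = 0.00476, adjusted 0.00612). The ratio of Tmed3 to Tmed5 changed by -0.28 ± 0.16 (exact permutation p = 0.0857, adjusted 0.0964), which did not pass. Of the 10 fits without 1 library it passed only without DMSO 4 (-0.40, adjusted 0.0286 by the exact permutation test), and it was smallest without DMSO 1 (-0.17, adjusted 0.281). The ratio of Tmed3 to Tmed7 changed by 0.09 ± 0.09, within the spread of the libraries (exact permutation p = 0.338, adjusted 0.338).

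Tmed10, the delta member, was at 156 ± 7.96 CPM with DMSO and 183 ± 2.82 CPM with tunicamycin, a 1.17-fold rise (edgeR adjusted p = 2.93e-06). Tmed2, the beta member, was listed at 7.13 ± 0.548 CPM with DMSO and 11 ± 0.58 CPM with tunicamycin, a 1.54-fold rise (edgeR adjusted p = 1.14e-07). Of the 50-base words of Tmed2, 22.0% also occur in transcripts of other genes, so its counted level is uncertain.

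The KDEL receptors bind ER proteins that end in the KDEL signal, such as the chaperone BiP, in the Golgi and return them in COPI vesicles. Of the other 4 genes of this class, Lman1, Mcfd2 and Surf4 serve export, as receptors or their partners, and Lman2 is a lectin related to Lman1. Of the 7 genes 6 rose (85.7%, against 31.8% of all genes tested) and 1, Kdelr1, fell (14.3%, against 32.5%). The median log2 fold change was 0.52. The class summed to between 503 and 560 CPM with DMSO and between 693 and 744 CPM with tunicamycin.

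Kdelr1 (ENSMUSG00000002778, chr7:45872772-45883732) was at 85.9, 77.4, 79.1 and 76.6 CPM with DMSO and 61.4 to 68.6 CPM with tunicamycin (median 65.7). All 6 tunicamycin libraries were below the 4 DMSO libraries, and it fell to 0.823-fold (log2 -0.28 ± 0.04, edgeR adjusted p = 1.83e-06). Kdelr2 (ENSMUSG00000079111, chr5:143403838-143421901) went the other way, from 63.2, 53.2, 54.4 and 54.6 CPM to between 69.8 and 78.3 CPM (median 73.1), a 1.31-fold rise (edgeR adjusted p = 2.47e-07). The DMSO 1 library was above the other DMSO libraries for both genes. The log2 ratio of Kdelr1 to Kdelr2 was 0.44 to 0.54 with DMSO and -0.31 to -0.02 with tunicamycin, a difference of -0.67 ± 0.05 (exact permutation p = 0.00476, adjusted 0.00612). More reads came from Kdelr1 in every DMSO library, and from Kdelr2 in every tunicamycin library.

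Kdelr3 (ENSMUSG00000010830, chr15:79516411-79527739) was the rarest receptor. It was at 3.92, 3.77, 2.42 and 3.12 CPM with DMSO and 4.15 to 5.38 CPM with tunicamycin (median 4.79), groups that were apart by a narrow margin. It rose 1.43-fold (log2 0.52 ± 0.12, edgeR adjusted p = 0.000926), with lane values of 0.19, 0.94 and 0.70. The ratio of Kdelr1 to Kdelr3 changed by -0.82 ± 0.17 (exact permutation p = 0.00476, adjusted 0.00612). That of Kdelr2 to Kdelr3 changed by -0.15 ± 0.16, which did not pass (exact permutation p = 0.338, adjusted 0.338), and it ranged from -0.247 without DMSO 2 to -0.025 without DMSO 3.

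Mcfd2 (ENSMUSG00000024150, chr17:87254443-87265935) is the calcium-binding partner of the lectin Lman1 (ERGIC-53), and together they export blood clotting factors from the ER. Mcfd2 was at 47.6, 42.4, 43.9 and 43.3 CPM with DMSO and 67.1 to 72.9 CPM with tunicamycin (median 71.7), a 1.60-fold rise (log2 0.68 ± 0.04, edgeR adjusted p = 1.35e-12). Lman1 was at 68.9, 65, 64.9 and 63.9 CPM with DMSO and 96.8 to 111 CPM with tunicamycin (median 102), a 1.56-fold rise (edgeR adjusted p = 4.28e-12). Both partners thus rose, each with groups apart. Lman2, the related lectin VIP36, was at 107, 97.5, 99.2 and 95.8 CPM with DMSO and 136 to 152 CPM with tunicamycin (median 139), a 1.41-fold rise (edgeR adjusted p = 1.80e-10). The ratio of Lman1 to Lman2 gained 0.15 ± 0.02 (exact permutation p = 0.00476, adjusted 0.00612). Surf4, an export receptor for soluble secreted proteins, was at 184, 168, 171 and 166 CPM with DMSO and 246 to 268 CPM with tunicamycin (median 253), a 1.48-fold rise (edgeR adjusted p = 4.40e-12). Per kilobase of merged exons it had the highest level of the 42 genes with DMSO, 52.5 CPM per kb, against 1.19 CPM per kb for Copz2. Sec23a (51.0 CPM per kb), Sar1a (49.6) and Sar1b (48.7) were close to it. The rank depends on the length used and was not computed with another.

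**Figure D3:**
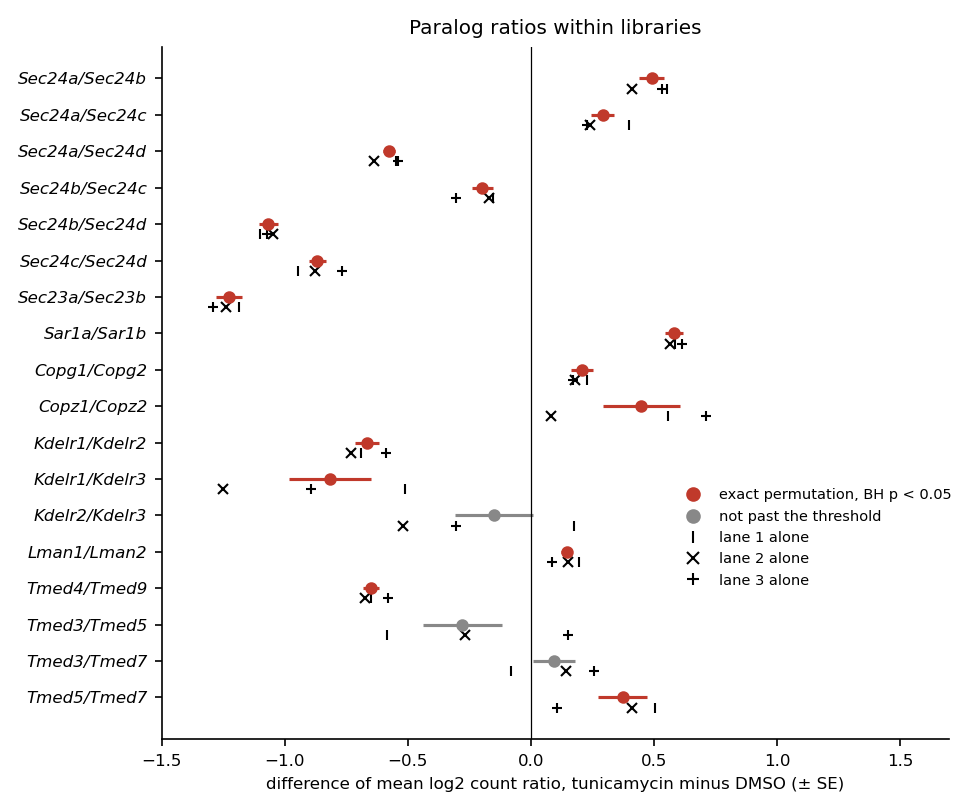
Change in the log2 count ratio of each of the 18 paralog pairs (tunicamycin minus DMSO), as points with bars of ± 1 standard error, red where the test was passed and grey where it was not, with the value of each of the 3 lanes in black marks. The ratios of Sec23a to Sec23b (-1.23) and Sec24b to Sec24d (-1.07) changed most, and Kdelr2 to Kdelr3, Tmed3 to Tmed5 and Tmed3 to Tmed7 did not pass the exact permutation test.

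In all, 15 of the 18 paralog ratios changed, 14 of them at the smallest p the design allows. These 15 had the same sign in each of the 3 lanes. In the 14 the groups did not overlap, which fixes that sign in advance, so only Copz1 to Copz2 could have differed. Ratios of a pair of genes say that the members changed unequally and do not say which of them moved. Ratios of other gene pairs were not tested, and 64.3% of all genes tested were called by edgeR in either direction. The count therefore does not show that paralogs changed unequally more often than other pairs of genes.

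All 4 listed SNAREs of the ER-Golgi fusion step rose (100%, against 31.8% of all genes tested), with a median log2 fold change of 0.60. Their summed level was 294 to 308 CPM with DMSO and 431 to 455 CPM with tunicamycin. Stx5a, the syntaxin of this complex (ENSMUSG00000010110, chr19:8741413-8756069), was at 53.0, 49.8, 54.0 and 54.3 CPM with DMSO and 90.9 to 100 CPM with tunicamycin (median 99.1). It rose 1.85-fold (log2 0.89 ± 0.04, edgeR adjusted p = 9.25e-15), the third largest rise among the 42 genes, with no overlap between groups. Its promoter holds the 8-letter match on both strands, in the sequences printed above. Bet1 was at 20.3, 20.1, 19.8 and 21.6 CPM with DMSO and 29.7 to 37.1 CPM with tunicamycin (median 33.2), a 1.64-fold rise (edgeR adjusted p = 3.41e-10). Sec22b, the vesicle-side SNARE, went from 86.3 ± 3.38 to 121 ± 5.45 CPM (1.40-fold, edgeR adjusted p = 2.53e-10). Gosr2 (membrin) went from 142 ± 3.43 to 194 ± 3.15 CPM (1.37-fold, edgeR adjusted p = 1.44e-11).

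All 3 listed tethers rose (100%, against 31.8% of all genes tested), with a median log2 fold change of 0.50. Their sum went from between 402 and 425 CPM to between 573 and 626 CPM. Uso1 (p115), a long coiled-coil protein that binds the SNAREs and links vesicles to the Golgi (ENSMUSG00000029407, chr5:92137938-92202798), was at 144, 142, 147 and 143 CPM with DMSO and 227 to 258 CPM with tunicamycin (median 251). It rose 1.73-fold (log2 0.79 ± 0.04, edgeR adjusted p = 2.90e-14), and the groups were far apart. Its binding partners on the Golgi also rose. Golgb1 (giantin) went from 165 ± 11.2 to 234 ± 8.74 CPM (1.42-fold, edgeR adjusted p = 4.44e-10), and Golga2 (GM130) from 107 ± 0.371 to 127 ± 1.62 CPM (1.19-fold, edgeR adjusted p = 1.67e-07).

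The make-up of the paralog families was also expressed per length, as the share of each gene in its family's summed CPM per kilobase of merged exons. Sec24d made up 20.2% ± 0.321 (SD, n = 4) of the Sec24 family with DMSO and 32.2% ± 0.83 (n = 6) with tunicamycin. Sec24c was the largest member in both groups, at 44.8% and 39.1%. Sec24b went from 28.7% to 21.8%, so that by this length Sec24d passed it, and Sec24a remained the smallest at 6.36% and 6.81%. Sec23b made up 17% of the Sec23 pair with DMSO and 32.4% with tunicamycin, with Sec23a the larger in both. Sar1a and Sar1b were near equal with DMSO (50.4% and 49.6%) and apart with tunicamycin (60.4% and 39.6%).

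Among the KDEL receptors, Kdelr1 made up 56.2% with DMSO and 44.6% with tunicamycin, Kdelr2 40.7% and 51.1%, and Kdelr3 3.09% and 4.29%. Tmed9 went from 57.0% to 67.6% of the alpha p24 pair. The length of the principal transcript was tried in place of merged exons, a choice made after seeing the data. It gave Sec24d 23.4% and 36.2%, Sec24b 24.1% and 17.8%, Sec23b 28.3% and 48.0%, and Sar1a 58.2% and 67.6%. By that length Sec24b and Sec24d were near level with DMSO, and Sar1a was already above Sar1b (41.8%). For the KDEL receptors that length gave Kdelr1 60.1% and 48.5% and Kdelr2 37.1% and 47.5%. Kdelr2 thus led with tunicamycin by merged exons and not by the principal transcript. Levels per length of Kdelr1 and Kdelr2 are therefore not ordered with tunicamycin.

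**Figure D4:**
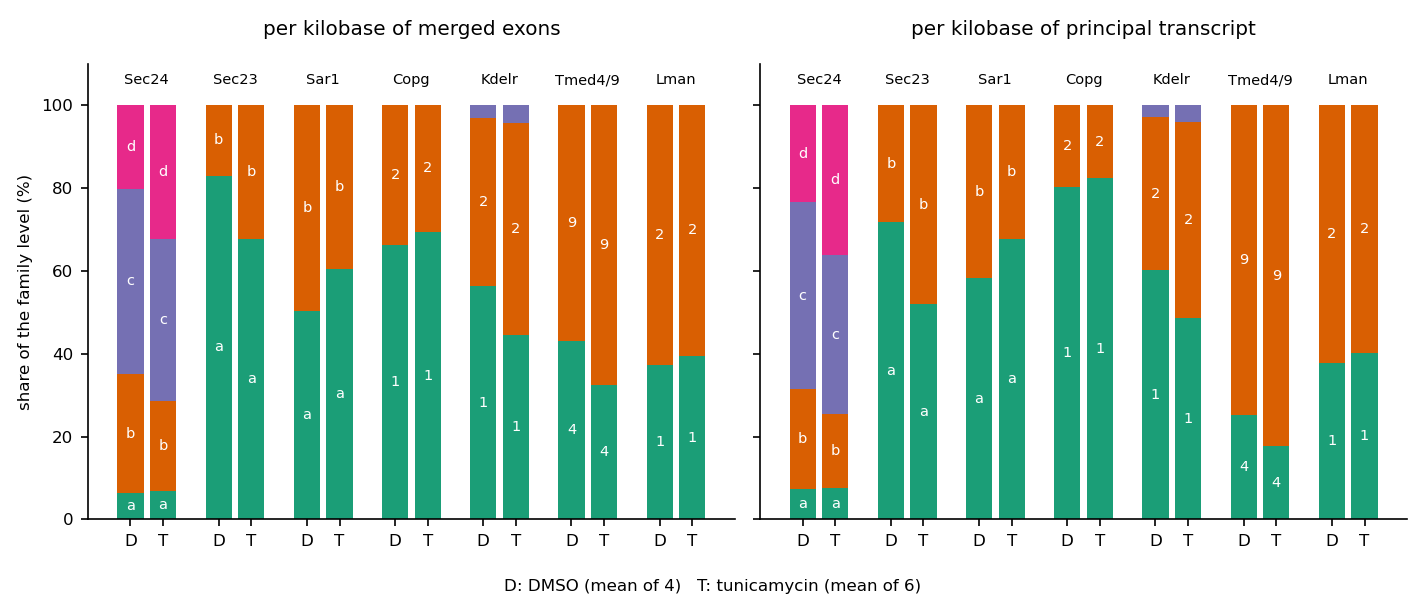
Share (percent) of each paralog in its family's summed CPM per kilobase of merged exons (left) or of the principal transcript (right), as stacked bars of the means with DMSO (D) and tunicamycin (T), the unlabelled top piece of Kdelr being Kdelr3. By merged exons, Sec24d went from 20.2% to 32.2%, Sec23b from 17% to 32.4%, and Kdelr2 from 40.7% to 51.1%.

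Beyond the 42 genes, a list of 82 other genes of the same route was examined, of which 79 were tested. By edgeR 35 rose (44.3%), 19 fell (24.1%) and 25 were not called (median log2 fold change 0.07). Over all genes tested the shares were 31.8% higher and 32.5% lower. Upper-quartile scaling gave 26 higher and 34 lower, with 23.2% and 44.3% over all genes. The difference between this list and the 42 genes was not tested. The genes named below have the smallest p of their sub-list in each direction.

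Among COPII export factors, 5 of 9 rose (55.6%, against 31.8% of all genes tested) and 1 fell (11.1%, against 32.5%). Sec23ip, a Sec23-binding protein of exit sites, went from 69.7 to 108 CPM (log2 0.63 ± 0.03), and Sec31b, the minor Sec31 paralog, fell from 1.64 to 0.317 CPM (log2 -2.34 ± 0.33). Sec31a and Sec31b, which are outer cage paralogs, thus went in opposite directions, although Sec31b was at low levels throughout. Of 9 genes of the Arf1 cycle, which loads COPI, 5 rose (55.6%) and 3 fell (33.3%), the latter near the share over all genes. Arfgap3, an Arf1 GTPase activator of the Golgi, went from 24 to 45 CPM (log2 0.91 ± 0.05), and Arf3 fell from 1114 to 949 CPM (log2 -0.23 ± 0.03).

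Of 13 cargo helpers tested 3 rose (23.1%) and 4 fell (30.8%), shares near those over all genes. Yipf5 rose (log2 0.46 ± 0.04) and Bcap31, an ER membrane chaperone, fell (log2 -0.33 ± 0.04). Of 13 further SNAREs and fusion factors 6 rose (46.2%, against 31.8% of all genes tested) and 1 fell (7.69%, against 32.5%). Scfd1, the Sly1 protein that assists Stx5a, rose (log2 0.50 ± 0.04), and the gene that fell was Nsf, the ATPase that takes SNARE complexes apart (log2 -0.17 ± 0.03).

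Of 21 further tethers and Rab GTPases 13 rose (61.9%, against 31.8% of all genes tested) and 3 fell (14.3%, against 32.5%). Cog3, a subunit of the COG tether of the Golgi, went from 51.2 to 95.3 CPM (log2 0.90 ± 0.04), and Rab1b fell from 126.5 to 104 CPM (log2 -0.28 ± 0.03). Of 14 genes of the TRAPP complexes, exchange factors of Rab1 and Rab11, 3 were higher (21.4%, against 31.8% of all genes tested). Another 7 were lower (50%, against 32.5%), and the median of the 14 was -0.10 on the log2 scale. Trappc8 rose (log2 0.40 ± 0.03), and the core subunit Trappc1 fell from 40.6 to 19.6 CPM (log2 -1.05 ± 0.06).

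**Figure D5:**
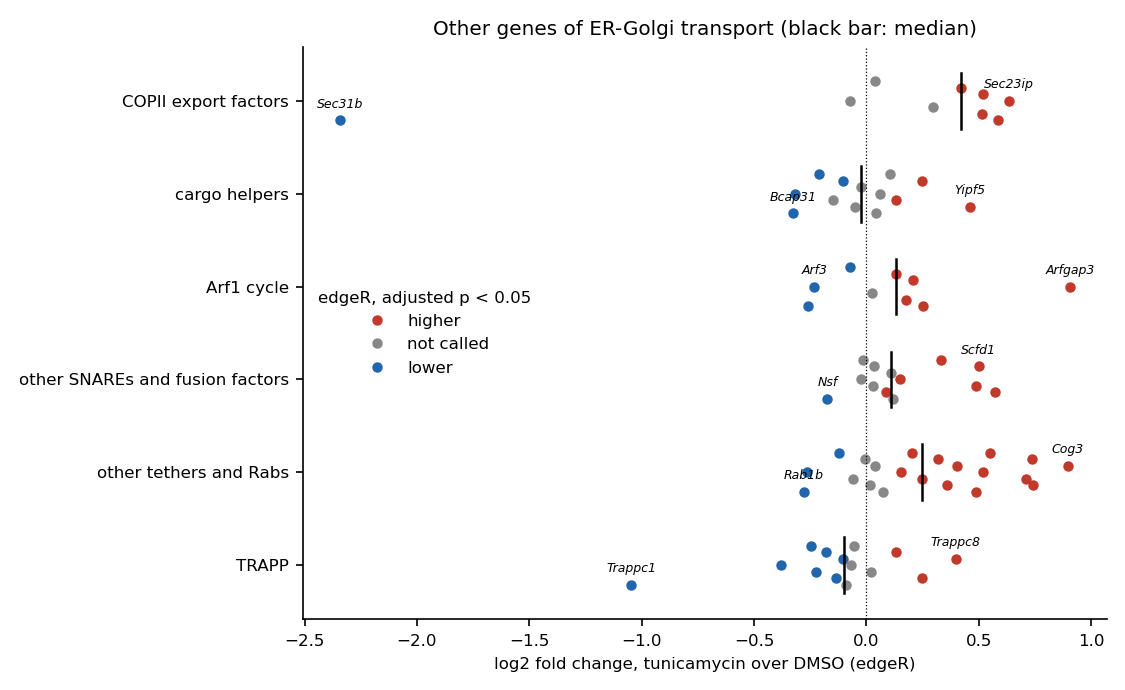
Log2 fold change (tunicamycin over DMSO) of the other ER-Golgi transport genes, by sub-list, with red points for genes called higher by edgeR, blue for lower, grey for not called, and a black bar at the median. Arfgap3 and Cog3 are the highest, at 0.91 and 0.90, and Sec31b (-2.34) and Trappc1 (-1.05) are the lowest.

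The authors' deposited tables list 32 of the 42 genes as upregulated and 4 as downregulated and leave 6 unlisted. Their log2 fold changes were within 0.00735 of those computed here for every listed member.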

How the data were processed

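Polyadenylated RNA was sequenced as 50-base single reads from TruSeq RNA v2 libraries, which do not mark strand, per the labels' protocols. Per the submitters' processing notes the tools were STAR 2.5.2b, DESeq2, FastQC 0.11.5, Subread 1.5.1 and featureCounts, on build mm10, with no roles stated. Annotation release, strand setting and multi-mapping reads: not given in the sources used here. Per library, the authors deposited whole-number counts per gene, not normalized. Their tables of changed genes hold a log2 fold change, an adjusted p-value and a normalized signal per library, of which only the log2 fold change and the adjusted p-value were read, per the file headers.

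Groups follow the agent in the labels. GENCODE M21 (GRCm38) matched 48349 of 48709 identifiers. The rest held 0.0462% of counts. All 10 libraries entered 1 quasi-likelihood F test in edgeR 4.0.16 (R 4.3.3; robust, TMM, filterByExpr, two-sided, no covariates), with Benjamini-Hochberg adjustment and 0.05 as the threshold for a call. Standard errors are the log2 fold change over the square root of F. Paralog ratios are log2 of counts plus 0.5, tested by exact permutation. No library repeated another (chi-square per degree of freedom 2.18 to 10.5). Genes and lists were chosen with earlier results of these data known. Full values were given for the member with the smallest p in each direction of each class, for members of each changed paralog pair and for members against their class. Of the other list, the smallest p in each direction of each sub-list was named. The code was tested on simulated data. Alternatives were upper-quartile scaling, DESeq2 1.42.0, no low-count filter or a filter on mean CPM, a lane term, a replicate block, another prior count in the ratios, and leaving out each library.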

Additional observations from a re-analysis of the deposited data

Results flagged for a closer look

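In 84 groups (42 genes, each with 4 DMSO and 6 tunicamycin libraries), the library furthest from its group was compared with the group's range by Dixon's criterion, which flags about 1 in 20 groups by chance. It picked out 3. Kdelr2 was at 63.17 CPM in DMSO 1, against 53.22 to 54.61 CPM in the other DMSO libraries. Stx5a was at 90.92 CPM in tunicamycin 5, against 96.69 to 100.1 CPM in the other tunicamycin libraries. Uso1 was at 226.6 CPM in tunicamycin 5, against 246.2 to 257.8 CPM. All 3 genes stayed called higher when the library in question was left out.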

How the results depend on the processing

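Upper-quartile scaling, which shifts all log2 fold changes down, gave 8 of the 42 genes lower in place of 4, and 34 of the other transport genes lower in place of 19. Under it 5 uncalled genes changed sign: Sec23a -0.10 (adjusted p = 0.00613 by edgeR), Sec13 -0.10 (0.0192), Copg1 -0.069 (0.0375), Copz1 -0.077 (0.0527) and Cope -0.028 (0.562). Leaving out each library gave 32 to 33 genes higher, 3 to 4 lower, 33 to 37 of the other transport genes higher and 18 to 20 lower, and 14 to 15 paralog ratios changed. Over the 42 genes and 17 settings, 700 values kept direction and side of the threshold, 5 lost the call, 5 changed sign (3 of these gaining a call) and 4 others gained a call. Libraries of the same number did not deviate together (correlations -0.227, -0.0203, -0.0479 and -0.0686), against -0.158 to 0.199 for libraries of unlike number. With only 4 numbers this cannot settle whether the libraries were paired, and the labels state no pairing. The replicate block takes only the 8 libraries with shared numbers. With it 32 genes were higher and 3 lower, and Copz2 was not called (-0.33, adjusted p = 0.151 by edgeR). The same 8 libraries without the block gave the same counts, and Copz2 was not called there either (-0.32, 0.11). With the block 0 paralog ratios passed, since the exact sign-flip test over 4 numbers cannot go below p = 0.125. Copz2 and Kdelr3, at a few CPM, are the genes whose depth limits precision most.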

Other observations

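DMSO 1 was the highest DMSO library for 22 of the 42 genes, including all 7 KDEL and cargo receptors, and Hspa5 was also highest there among DMSO libraries, at 674 CPM. Those 7 include Kdelr1, which fell with tunicamycin. Tunicamycin 5 was the lowest tunicamycin library for 21 of the 42, and Hspa5 was lowest there among tunicamycin libraries, at 2966 CPM. How often these libraries were highest or lowest over all genes was not computed.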
